A study of Mus musculus with 10 samples.

Results

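The ASMM10EP3B probes (EP3B below) are 8497 of the 60706 mouse probes of an Agilent 2-colour RNA array, chosen by their probe name alone: every probe that is not a control and whose name starts with ASMM10EP3B. The array also holds 48057 probes whose names start with ASMM10EP3A (EP3A below), 4087 whose names start with ASMM10SM and 65 others. Each EP3B probe has 1 spot per array, and the deposited files give it no transcript, gene name or position in the genome. The values below therefore describe probes, each identified by the number in its name. No sequence of an EP3B probe was used here.

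The arrays carry RNA of testes of C57BL/6J male mice aged 3 months. Pregnant C57BL/6 mothers of the 5 control animals had received the solvent, sesame oil and benzyl benzoate. Mothers of the 5 testosterone animals had received testosterone, 2.5 mg/kg body weight daily under the skin, from day 14 to day 19 post coitum. The labels describe each testis as prenatally treated, and the treatment protocol also describes a further generation bred from the exposed males, so the animals are taken here as the directly exposed offspring. The labels name no transgene or deletion. The labels call the arrays biological replicates but give neither the dam nor the litter, so the p-values measure the spread between these animals and littermates cannot be recognised. Of 25 marker genes listed for germ, Leydig, Sertoli, epididymal, red and macrophage cells, 0 were named by any probe, so the tissue label could not be checked against its markers. In a whole testis, fewer cells of a type and less RNA per cell cannot be told apart.

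On each array 2 fractions of the RNA of 1 testis were compared. The immunoprecipitated fraction (IP), pulled down by an antibody, carried Cy5. The supernatant (Sup), which holds what the antibody left behind, carried Cy3. Such a design sorts copies of a transcript by whether the antibody binds them, so a high IP/Sup ratio means that more of the signal lay in the bound fraction. Where the antibody recognises a chemical mark on RNA, such as a methylated base, the ratio is read as a relative degree of marking. The labels do not name the antibody here. The adult testis is known for a very broad repertoire of transcripts, coding and noncoding, most of it from germ cells. Androgens act on the developing male reproductive tract before birth.

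The arrays lay on 3 slides, and the scanner headers give 2 scans. Slide 1 held 4 controls, slide 2 the other control with testosterone replicates 1 to 3, and slide 3, the only slide of the second scan, testosterone replicates 4 and 5. The second scan holds no control. Values are therefore also given for the 8 arrays of the first scan and for slide 2 alone, where 1 control stood beside 3 testosterone arrays. No EP3B spot was saturated in either channel on any array (0 spots).

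EP3B probes were dimmer than EP3A probes. The mean log2 processed signal of both channels had a median of 8.14 over EP3B probes, with 80% of them between 4.39 and 12.3, against a median of 8.62 over EP3A probes, with the same share between 4.66 and 12.8. Each comparison with EP3A below therefore also uses EP3A probes weighted to the brightness of the EP3B probes over 20 bins, called matched EP3A. The EP3B spots were spread over the whole array, from row 1 to 384 and from column 1 to 164, with 2079, 2111, 2088 and 2219 of them in its 4 corners when rows and columns were each split in the middle. No region of the array held them apart from the rest.

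About 7 in 10 EP3B probes gave a signal that the scanner software called well above background, in each fraction. In the Sup channel this share was 69.4% ± 0.755 (SD, n = 5) in controls and 66.6% ± 2.69 (n = 5) in testosterone arrays. In the IP channel it was 70.9% ± 1.57 and 66.8% ± 5.64. The spread in the testosterone group followed the scan in the IP channel: its first-scan arrays averaged 70.8% and the 2 arrays of the second scan 60.8%. In the Sup channel the second-scan arrays stood at 65.5% and 64.6%, and first-scan testosterone replicate 1 was lower still, at 64.3%. The median EP3B signal was 326 ± 7.43 (SD, n = 5) in controls and 262 ± 52.0 (n = 5) in testosterone arrays in the IP channel, and 298 ± 7.48 against 241 ± 47.6 in the Sup channel.

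Of 4 such comparisons between the groups, signal differed and detection did not pass the test. Exact two-sided permutation tests over the 10 arrays gave p = 0.00794 for the IP signal and 0.0238 for the Sup signal (0.0317 and 0.0476 after Benjamini-Hochberg adjustment over the 4). For the detected shares the p was 0.214 in IP and 0.0952 in Sup (adjusted 0.214 and 0.127). These signals were not scaled between arrays, and the lower signal was not particular to EP3B. In IP the median EP3A signal was 421 to 442 on control arrays and 270 to 416 on testosterone arrays. In Sup it was 413 to 436 and 265 to 409. The signal averaged 298 in IP and 273 in Sup over the first-scan testosterone arrays, and 208 and 194 over the second scan, so scan and treatment cannot be told apart in the second-scan arrays. Slide 1 held only controls, so slide and treatment are largely confounded too. Within slide 2 the IP signal was 317 in the control and 271, 308 and 315 in testosterone replicates 1 to 3. The Sup signal there was 286 in the control and 241, 288 and 290 in those replicates.

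Set against matched EP3A probes, EP3B probes leaned slightly toward the IP fraction in detection. The share well above background in IP was higher for EP3B than for matched EP3A on 10 of 10 arrays, by 1.08 ± 0.231 percentage points (SD, n = 10). In Sup it was lower on 8 of 10 arrays, and the mean difference over all arrays was -0.927 ± 0.553 percentage points. The 2 exceptions were the second-scan arrays, at 0.0653 and 0.00993. These differences are small beside those without matching, -6.74 points in Sup and -4.78 in IP, where EP3A probes are brighter. No test is given, since probes on 1 array are not replicates of each other.

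**Figure D1:**
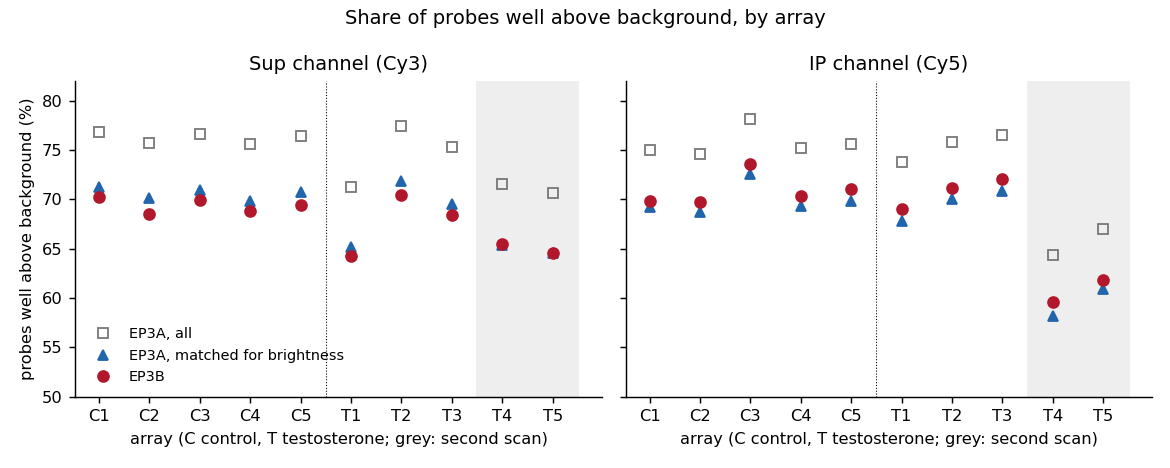
Share of probes that the scanner software called well above background (vertical axis, percent) on each of the 5 control (C) and 5 testosterone (T) arrays, for all EP3A probes, matched EP3A probes and EP3B probes; the axis starts at 50%. EP3B probes lie below all EP3A probes in both channels, just above matched EP3A in IP on 10 of 10 arrays, and below it in Sup on 8 of 10.

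Most EP3B probes were detected in both fractions or in neither. Counting a channel as detected where the probe was well above background on at least 5 of the 10 arrays, 5499 EP3B probes (64.7%) were detected in both channels and 2178 (25.6%) in neither. Another 473 (5.57%) were detected in IP only, against 4.48% of matched EP3A probes. Detection in Sup only was found for 347 (4.08%), against 5.07% of matched EP3A. The stricter count had the same order: 82 EP3B probes (0.965%, matched EP3A 0.712%) were detected in IP on all 10 arrays and in Sup on 0, and 36 (0.424%, matched EP3A 0.588%) the other way round. EP3B probes detected in only 1 fraction thus lay more often in IP, and matched EP3A probes more often in Sup; this is a description of both lists, without a test.

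The authors' deposited value table followed the IP channel. It held a row for 5964 EP3B probes (70.2%) and for 36029 EP3A probes (74.97%). All 5964 were well above background in IP on at least 5 arrays, and 8 of the 5972 EP3B probes that met this had no row. A reader of that table alone would not see the EP3B probes detected only in Sup.

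The IP/Sup ratio of a probe was its processed Cy5 signal divided by its processed Cy3 signal, on a log2 scale and centred on the array's median, so 0 stands for the middle of all probes and not for equal amounts of RNA. The ratio was fitted for 5458 EP3B probes, those well above background in both channels together on at least 5 arrays. Over the 10 arrays their mean ratio ran from -5.96 to 5.71, with a median of 0.0079 and 80% of probes between -1.55 and 1.64. The order of the probes was much the same on every array: over the 45 pairs of arrays, Pearson's r across the 5458 probes ran from 0.869 to 0.971 with a median of 0.936, as a description, since all arrays share the probes' own sequence and brightness.

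Ratios at least 2-fold to either side of the array median, with an adjusted p under 0.05 (limma, mean of both groups against 0), were found for 1090 EP3B probes on the IP side (19.97%) and for 1056 on the Sup side (19.3%). Over all 41424 probes tested these shares were 19.5% and 21.2%. EP3B probes therefore stood near the background on the IP side and slightly below it on the Sup side. How many probes fall on each side depends on where 0 is placed and on how the signal is processed. With the arrays centred on 22 calibration spike-in probes in place of the array median, the split among EP3B probes was 1407 toward IP (25.8%, all tested probes 24.9%) and 799 toward Sup (14.6%, all 16.1%), because the median ratio of all tested probes then moved from -0.045 to 0.21. With normexp background correction the counts were 534 (9.78%, all 10.7%) and 712 (13.0%, all 14.3%). The normexp setting started from the median spot signals, not the processed signal, and added an offset of 50 to both channels. It thus differs from the main setting in more than the background correction.

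The spike-in RNA, added in equal amount to both fractions, did not give the same ratio for every spike-in probe. The ratios here are also centred on the array median of the mouse probes. The 22 spike-in probes detected in each fraction on every array ran from -3.52 to 1.40, with a median of -0.307. Of these, 10 lay beyond 2-fold of the array median. Of the 5458 tested EP3B probes, 4699 lay within that range, 722 above it and 37 below it. The lowest spike-in probe stood apart from the next, at -1.56, below which 538 EP3B probes lay. A ratio of about 2-fold is thus within what equal amounts of added RNA gave on these arrays, while 722 EP3B probes exceeded every spike-in probe on the IP side.

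The median ratio of EP3B probes was slightly above that of matched EP3A probes. The medians over the mean ratios were 0.0079 and -0.046. Array by array, the EP3B median exceeded the matched EP3A median by 0.043 ± 0.035 (SD, n = 10), from -0.012 to 0.0999, and was above it on 9 of 10 arrays. On the 5 control arrays the difference was 0.00034, 0.0999, 0.017, 0.080 and 0.065. On the testosterone arrays it was 0.046, 0.044, 0.049, 0.037 and -0.012. The size varied as much among controls as between the groups. Bin by bin of brightness, the EP3B median was the higher in 14 of 20 bins. Under normexp correction the difference between the medians was 0.017. Among probes detected in both channels on all 10 arrays it was 0.020. With brightness taken from Sup or from IP alone it was 0.027 or 0.074. The matching did not cover the number in the probe name, described below.

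**Figure D2:**
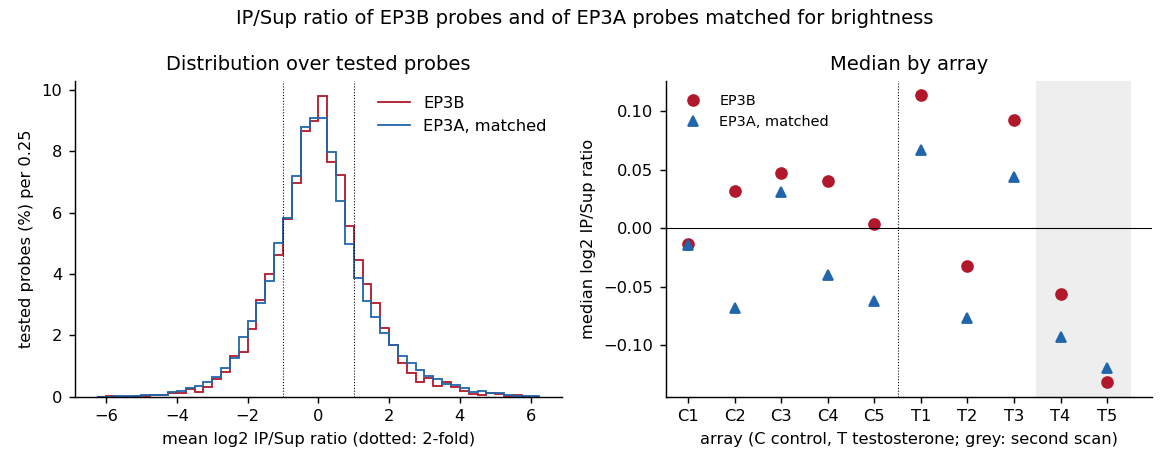
Left, the share of tested probes (percent per 0.25 of log2 ratio) by mean log2 IP/Sup ratio over the 10 arrays, for 5458 EP3B probes and for matched EP3A probes, with dotted lines at 2-fold. Right, the median ratio of both on each control (C) and testosterone (T) array; both distributions are centred near 0 and the EP3B median is above matched EP3A on 9 of 10 arrays.

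The spread between animals was close to that of matched EP3A probes. The SD of the log2 ratio within groups had a median of 0.293 over EP3B probes, with 80% of them between 0.170 and 0.530, and a median of 0.287 over matched EP3A probes. It was the higher for EP3B in 15 of 20 brightness bins. The spread fell with brightness, from a median SD of 0.505 in the dimmest bin to 0.238 in the brightest. Among the 4460 EP3B probes detected in both channels on all 10 arrays the median SD was 0.268. For RNA abundance, defined below, it was 0.196 against 0.198 for matched EP3A.

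The EP3B probes with the highest and lowest ratios kept them in every animal. They were the 3 highest and the 3 lowest of those past the test and detected in both fractions on 10 of 10 arrays, so their size is a description of the choice. Probe ASMM10EP3B100007973 had log2 ratios of 5.62, 5.76, 5.54, 5.52 and 5.81 in controls 1 to 5 and of 5.87, 5.60, 5.80, 5.51 and 6.07 in testosterone replicates 1 to 5. Its mean of 5.71 ± 0.071 (SE, n = 10) lies 52.4-fold to the IP side of the array median, and the groups overlapped. It was also among the bright probes, with an IP signal of 209445 to 402163.

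Probe ASMM10EP3B104475249 had ratios of 6.16, 6.12, 5.68, 5.85 and 6.17 in controls and of 5.76, 5.56, 5.56, 4.66 and 5.03 in testosterone arrays, a mean of 5.66. The lowest values were those of the 2 second-scan arrays, and the fitted group difference was -0.68 ± 0.21 (SE, limma, adjusted p = 0.794). Probe ASMM10EP3B100014956 had ratios of 5.31, 6.92, 5.44, 5.39 and 5.99 in controls and of 5.57, 5.39, 5.24, 5.04 and 5.02 in testosterone arrays, a mean of 5.53. Its control replicate 2 stood above the others.

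On the Sup side, probe ASMM10EP3B104232270 had the lowest ratio. It read -5.91, -5.09, -5.62, -6.48 and -6.06 in controls and -6.06, -6.13, -5.91, -6.06 and -6.30 in testosterone arrays. Its mean of -5.96 ± 0.11 (SE, n = 10) lies 62.3-fold to the Sup side of the array median. Its IP signal was still well above background on 10 of 10 arrays, at 449 to 1112. Probe ASMM10EP3B107279298 read -5.19, -6.82, -5.78, -5.32 and -5.92 in controls and -5.23, -5.46, -5.79, -6.86 and -6.32 in testosterone arrays, a mean of -5.87 with a wide range in both groups. Probe ASMM10EP3B101552619 read -5.36, -4.45, -5.02, -5.77 and -5.66 in controls and -5.22, -4.93, -5.23, -4.82 and -5.53 in testosterone arrays, a mean of -5.20. In all 6 of these probes the groups overlapped in the ratio.

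The ratio of EP3B probes varied with the number in the probe name. The numbers ran from 100000013 to 107750178, while EP3A numbers reached 129425252. When the numbers were divided into bins of 1000000, the median EP3B ratio was 0.13 in the lowest bin, between -0.064 and 0.00057 in the next 4, and -0.24, -0.51 and -0.54 in the last 3. Blocks were then formed from these values: a low block (100000013 to 100998004, 3954 probes), a middle block (101000418 to 104999591, 3663 probes) and a high block (105001308 to 107750178, 880 probes). Because the blocks were drawn after their values were seen, they are described without a test.

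The high block lay below the middle block and the low block above it on every array. The median ratio was 0.13 over the 2370 tested probes of the low block, -0.020 over the 2467 of the middle block and -0.35 over the 621 of the high block. On single arrays the high block minus the middle block was -0.43 to -0.25, below 0 on 10 of 10 arrays. The low block minus the middle block was 0.11 to 0.35, above 0 on all 10. The IP side held 24.0%, 18.8% and 9.18% of the tested probes of the low, middle and high blocks, and the Sup side 15.7%, 20.5% and 28.8%. With normexp correction the order stayed, with smaller differences of -0.17 for high minus middle and 0.072 for low minus middle.

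The difference in detection between the fractions moved with the blocks, while detection rose from block to block in both fractions. Well above background on at least 5 arrays were 63.7% of the low block in Sup and 67.4% in IP, 71.9% and 72.6% of the middle block, and 79.1% and 73.8% of the high block. The high block was thus the only 1 of the 3 detected more often in Sup than in IP. Tested probes of the 3 blocks were similarly bright, with a median log2 signal of 9.83, 9.61 and 9.498.

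EP3A probes showed a late drop as well, at higher numbers, but no clear step after the lowest bin. Their median ratio was 0.060 in the bin of numbers shared with the low EP3B block, 0.034 from 101000322 to 118998178 and -0.39 from 119000648 to 129425252, where the IP side held 10.5% of the tested probes and the Sup side 29.2%. The drop in EP3B therefore began at lower numbers than in EP3A: between 105001308 and 107750178, where EP3B medians were -0.24 to -0.54, the medians of the EP3A bins were -0.0099 to 0.079. The median of the middle EP3B block, -0.020, lay below that of the middle EP3A numbers, 0.034. Among the bins that both series share, only the lowest had the higher median in EP3B. Low numbers held 2370 of the 5458 tested EP3B probes and 6218 of the 33846 tested EP3A probes. The matched EP3A comparison above was matched by brightness and not by number. What the numbers stand for is not given in the sources used here.

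**Figure D3:**
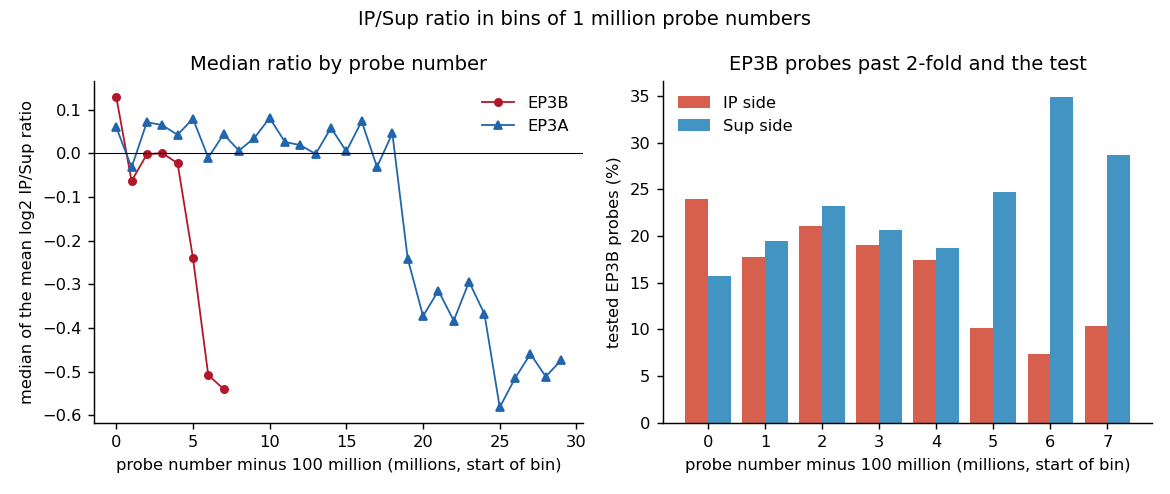
Left, the median of the mean log2 IP/Sup ratio (vertical axis) of tested probes in bins of 1000000 probe numbers (horizontal axis, counted from the lowest bin) for EP3B and EP3A. Right, the percent of tested EP3B probes past the test on either side in each bin; EP3B medians fall from 0.13 in the first bin to -0.54 in the last, and EP3A medians fall at higher numbers.

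EP3B numbers were often consecutive, and nearly all such numbers lay in the low block. Runs of at least 2 consecutive numbers held 2497 EP3B probes (29.4%) in 575 runs, the longest of 10, and 2395 of these probes lay in the low block. Among EP3A probes 11.3% were in runs. Within the low block, the EP3B probes in runs had a median ratio of 0.21 and the others 0.034. The same split in the low numbers of EP3A gave 0.21 and -0.0032. Probes in runs thus lay further toward IP than the other low numbers, in both series.

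Neighbours in number were alike outside the low block but not within it. Over the 38 consecutive EP3B pairs of the middle and high blocks with both ratios measured, Pearson's r across pairs was 0.794 and the median absolute difference 0.17. Over the 609 such pairs of the low block, r was -0.015 and the median absolute difference 1.29. EP3A pairs behaved alike, with r = 0.914 over 744 pairs outside its low numbers and 0.049 over 984 pairs within them. These correlations are descriptions across pairs that share arrays, and chains of 3 or more numbers enter more than once. A further 137 EP3B probes share their number with an EP3A probe. In the 41 of these pairs tested on both sides the ratios gave r = -0.278, and over the 137 pairs brightness gave r = -0.0021, so an equal number did not go with an equal signal.

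No EP3B probe passed the test for a ratio that differed after prenatal testosterone: 0 of 5458 had an adjusted p under 0.05 (limma, Benjamini-Hochberg over all 41424 probes tested, of which 0% were called), and the lowest adjusted p was 0.794. At an unadjusted p under 0.05 there were 302 EP3B probes (5.53%), against 6.04% of all probes tested. Of these, 124 were higher (2.62% of all probes tested were) and 178 lower after testosterone (3.43% of all). Centring on the spike-in probes gave 202 higher and 86 lower, together 5.28% of EP3B probes, beside 5.61% of all. With array-median centring the count was 201 without testosterone replicate 4 and 199 without replicate 5, the arrays of the second scan. The median fitted difference over EP3B probes, testosterone minus control, was -0.032, beside -0.018 over all tested probes and -0.013 over matched EP3A. Its direction followed the scan and the centring: it was 0.044 on the 8 first-scan arrays (all probes 0.039), 0.054 within slide 2 (all probes 0.058) and 0.073 after spike-in centring (all probes 0.086).

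The 4 EP3B probes named for the ratio difference are those with the smallest unadjusted p, 2 in each direction, among probes with all testosterone arrays on 1 side of the control mean, and none passed the adjustment. Probe ASMM10EP3B105765203 had ratios of -0.51, -0.71, -0.75, -0.51 and -0.95 in controls and of -0.0093, -0.31, -0.043, 0.60 and 0.50 in testosterone arrays. Its IP signal was low, at 87.9 to 178, and well above background on 4 of 5 control and 5 of 5 testosterone arrays. The groups did not overlap, the 2 second-scan arrays were the highest, and the fitted difference was 0.83 ± 0.19 (SE, limma, adjusted p = 0.794). It was 0.56 on the first-scan arrays, 0.83 within slide 2 and 0.11 with normexp. Non-overlap of this kind was found for 43 EP3B probes (0.788%), beside 0.855% of all probes tested.

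Probe ASMM10EP3B103392763 had ratios of -0.60, -0.64, -0.63, -0.93 and -0.17 in controls and of -0.0996, -0.075, -0.22, 0.018 and 0.30 in testosterone arrays. Only control replicate 5 fell within the testosterone values, and the difference was 0.58 ± 0.16 (SE, limma, adjusted p = 0.794). Within slide 2 it was 0.044, and with normexp 0.19. Probe ASMM10EP3B103876660 read -0.47, -0.58, -0.30, -1.23 and -0.86 in controls and -1.96, -1.57, -1.23, -2.06 and -2.40 in testosterone arrays. Its difference was -1.16 ± 0.23 (SE, limma, adjusted p = 0.794), but its IP signal was well above background on only 2 of the 5 testosterone arrays, so the lower values there rest on a signal near background. Within slide 2 the difference was -0.73 and with normexp -0.070. Probe ASMM10EP3B100014800 read -1.79, -1.30, -1.15, -1.76 and -1.31 in controls and -2.41, -1.80, -2.70, -2.27 and -2.72 in testosterone arrays, without overlap. Its IP signal, 97.4 to 273, was well above background on 5 of 5 control and 4 of 5 testosterone arrays. Its difference was -0.92 ± 0.20 (SE, limma, adjusted p = 0.794), with -0.99 within slide 2 and -0.34 with normexp.

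RNA abundance added the fractions up: each channel was scaled to its own 75th percentile on the array, and the sum of the scaled signals was put on a log2 scale, so both fractions count alike. It was fitted for 6362 EP3B probes, those detected in 1 fraction or both on 5 or more arrays. None passed: 0 EP3B probes had an adjusted p under 0.05 (limma, all 47646 probes tested, of which 0.0063% were called), and the lowest adjusted p was 0.119. Scaling on the spike-in probes called 2 EP3B probes, of 3 called among all probes. A fit of the authors' deposited table, which holds the IP channel only, called 52 (0.872%), beside 1.06% of all its probes. In that fit the median difference was -0.28 over EP3B probes and -0.30 over all probes. Its SE was 0.290 both for ASMM10EP3B100007973 and for ASMM10EP3B104232270, so its p-values do not reflect a probe's own spread. Leaving out testosterone replicate 3 called 1, of 2 among all probes.

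At an unadjusted p under 0.05 there were 1039 EP3B probes (16.3%), beside 15.7% of all probes tested. Those higher after testosterone were 405 (6.37%), against 4.44% of all probes, and those lower were 634 (9.97%), against 11.3% of all. The EP3B share was above that of all probes among the higher ones and below it among the lower ones. On the first-scan arrays 655 EP3B probes (10.3%) had such a p, 260 higher and 395 lower, beside 8.05% of all probes, and without testosterone replicate 5 alone the count was 639. Other scalings moved the split. It was 111 higher and 453 lower on the spike-in scale, 404 and 229 with normexp, 485 and 476 after quantile normalization, and 22 and 656 in the authors' deposited values.

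The median abundance difference of EP3B probes was -0.019, beside -0.049 over all tested probes and -0.058 over matched EP3A. On the first-scan arrays it was -0.034 (all -0.046, matched -0.052), and within slide 2 it was -0.041 (all -0.045, matched -0.045). The gap between EP3B and matched EP3A thus shrank from 0.039 to 0.018 and 0.0036. On the spike-in scale the median over all probes moved from -0.049 to -0.15. With normexp the sign turned: the median was 0.045 over EP3B probes, 0.030 over all probes and 0.028 over matched EP3A.

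**Figure D4:**
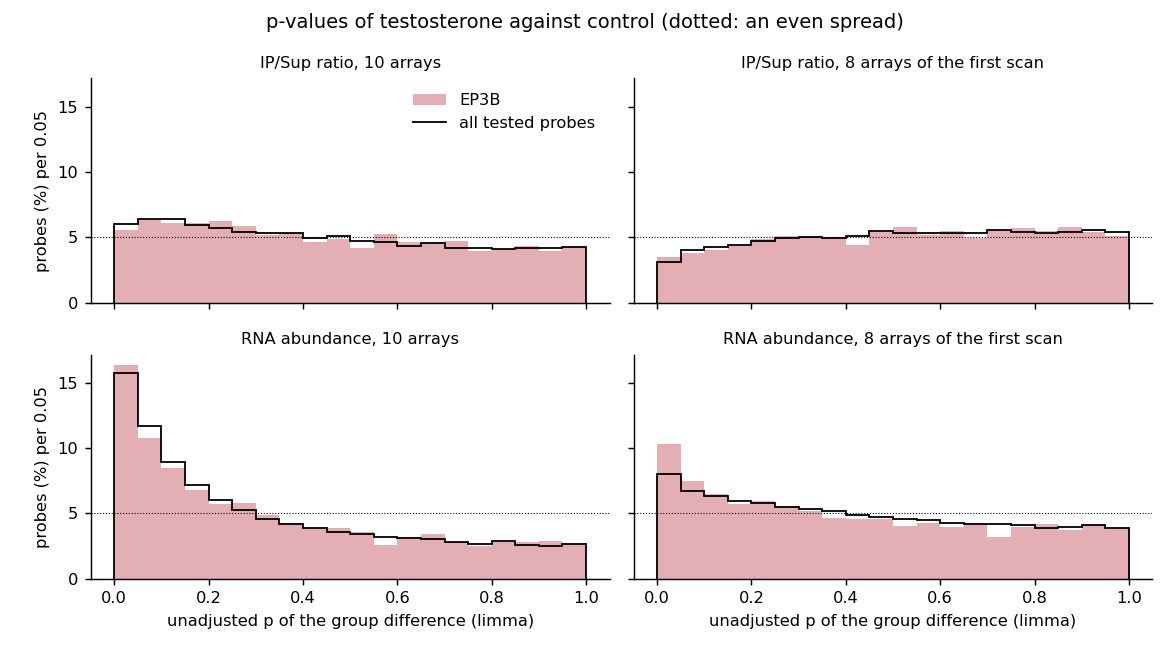
Share of probes (percent per 0.05) by unadjusted limma p of testosterone against control for the IP/Sup ratio (top) and RNA abundance (bottom), on 10 arrays (left) and on the 8 first-scan arrays (right). Shaded areas are EP3B probes, lines are all tested probes, and the dotted line marks an even spread; the lowest bin for abundance holds 16.3% of EP3B probes on 10 arrays and 10.3% on the first scan.

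The abundance difference also stepped with the probe number. Its median was 0.023 over the 2801 tested probes of the low block, -0.039 over the 2836 of the middle block and -0.098 over the 725 of the high block. On the first-scan arrays the medians were -0.018, -0.043 and -0.058, so the order stayed and the steps were smaller. EP3A probes had like medians, 0.0062, -0.048 and -0.118 in their own low, middle and high numbers, so the steps were not particular to EP3B. The gap to matched EP3A given above was not matched for number. Low numbers held 2801 of the 6362 tested EP3B probes. For EP3A they held 7219 tested probes, beside 23949 in the middle and 7402 in the high numbers. Among the low-block probes in consecutive runs the median was 0.063 on all arrays and 0.0051 on the first scan, beside 0.069 and -0.0060 for EP3A. The part of the second scan in this pattern was not tested beyond these values.

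The 4 EP3B probes named for abundance were chosen in the same way as for the ratio, and their groups did not overlap. In abundance this was so for 107 EP3B probes above and 141 below the controls (together 3.90%, beside 3.57% of all probes tested). Probe ASMM10EP3B100038862 had log2 abundances of -0.23, -0.26, -0.32, -0.077 and 0.057 in controls and of 0.18, 0.39, 0.33, 0.30 and 0.60 in testosterone arrays. The difference was 0.53 ± 0.10 (SE, limma, adjusted p = 0.197), with 0.25 within slide 2, 0.39 with normexp and 0.26 in a fit of the authors' deposited table. The probe was detected in both fractions on 10 of 10 arrays. Its IP/Sup ratio was 2.12 ± 0.33 (SD, n = 5) in controls and 2.14 ± 0.42 (n = 5) after testosterone.

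Probe ASMM10EP3B100019446 read -1.74, -1.89, -2.33, -1.53 and -1.35 in controls and -0.82, -0.63, -0.89, -0.76 and -0.81 in testosterone arrays. Its IP signal was well above background on all 10 arrays, and its Sup signal on 0 of 5 control and 2 of 5 testosterone arrays. The abundance difference was 0.98 ± 0.16 (SE, limma, adjusted p = 0.153), with 0.57 within slide 2 and 0.44 with normexp. No fold is given for Sup, where neither group was well above background on most arrays.

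Probe ASMM10EP3B100033180 read -3.08, -3.26, -2.94, -2.99 and -2.83 in controls and -4.18, -4.58, -3.56, -4.38 and -4.52 in testosterone arrays. It was well above background in IP on 4 of 5 control arrays and on 0 of 5 testosterone arrays, and in Sup on 1 and 0. Its IP signal after testosterone therefore has only a bound, at least 1.05-fold lower than in controls, and no fold is given for Sup. The bound sets the mean of all 5 controls against, on each testosterone array, the lowest signal well above background (or the probe's own where higher), after loess and Aquantile normalization, and it is open to dye bias. The fit gave a difference of -1.23 ± 0.18 (SE, limma, adjusted p = 0.119), which passed on the spike-in scale (adjusted p = 0.0367) and without testosterone replicate 3 (-1.40, adjusted p = 0.0080), the highest array of its group. With normexp the difference was -0.063 (adjusted p = 0.819), and with slide as a block -1.28 (adjusted p = 0.902). The probe met the filter of 5 arrays through control arrays alone, the group where it was high. Its p-values and its lack of overlap are therefore no support for a difference.

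Probe ASMM10EP3B100019156 read -2.43, -1.99, -2.46, -1.77 and -2.08 in controls and -3.64, -3.70, -3.27, -3.56 and -2.67 in testosterone arrays. It was detected in IP on 5 of 5 control and 4 of 5 testosterone arrays, and not well above background in Sup on any (0 of 10). The difference was -1.22 ± 0.20 (SE, limma, adjusted p = 0.158). It passed on the spike-in scale (-1.43, adjusted p = 0.0367) and in a fit of the authors' deposited table (-1.70, adjusted p = 2.9e-05). In that table the median difference over all probes was -0.30, and the p does not reflect the probe's own spread. With normexp the difference of this probe was -0.155 (adjusted p = 0.635). From the Sup channel alone it was -0.056 (adjusted p = 0.936), and with slide as a block -1.46 (adjusted p = 0.920).

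**Figure D5:**
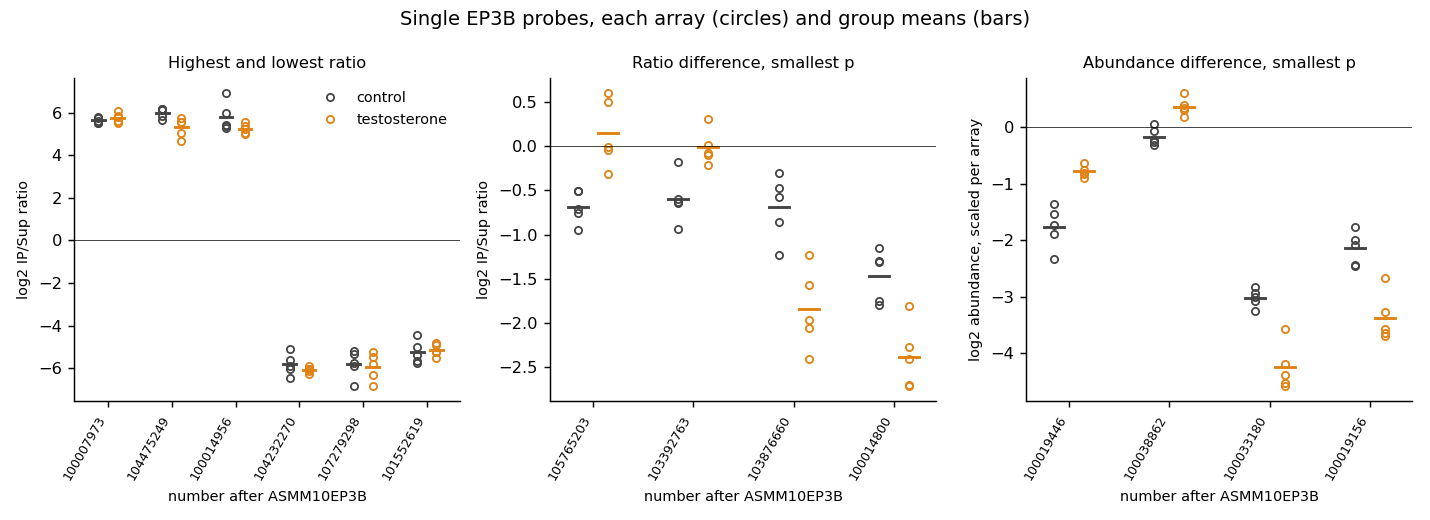
Values on each array (circles) and group means (bars) of single EP3B probes in controls and after prenatal testosterone: log2 IP/Sup ratio of the 3 highest and 3 lowest probes (left), log2 ratio of the probes with the smallest p for a ratio difference (middle) and log2 abundance, scaled per array, of those with the smallest p for an abundance difference (right). In the left panel both groups overlap for all 6 probes; in the right panel they do not overlap for any of the 4.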

How the data were processed

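Samples were grouped by title into 5 control and 5 testosterone testes. Members, matching and blocks of numbers were chosen with earlier results of these data known. The submitters' processing notes name Agilent Feature Extraction, version 11.0.1.1, as the authors' software. Per the file headers, the deposited processed signal is a linear intensity per spot, background subtracted, spatially detrended and dye normalized (linear and lowess), and the design names build mm9. The deposited flags are 0 or 1 per spot. The authors' deposited value table is log2 of the Cy5 signal minus 1 constant per array. The origin of the constants is not given in the sources used here, and its column medians ran from 1.26 to 2.25. Per the labels, Sup carried Cy3 and IP Cy5, with no dye swap, so dye and fraction cannot be told apart.

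From these, ratio and abundance were computed as described, without control spots, spike-ins and outlier spots (348 to 694 per array). All mouse probes past the detection filter were fitted with limma 3.58.1 in R 4.3.3 (lmFit, eBayes, Benjamini-Hochberg, threshold 0.05), and the functions were tested on simulated data. The number of arrays, 5 per group, limits the precision. Named probes were the 3 highest and 3 lowest ratios past the test and detected in both channels on 10 arrays, and, for each group difference, the 2 probes per direction with the smallest p and all testosterone arrays on 1 side of the control mean. Normexp (offset 50) was run on the median spot and background signals, without the detrending and dye normalization of the processed signal. Other alternatives were loess, quantile, spike-in scaling, other filters, bins and variance models. The rest were slide, scan or replicate block, single channels, the value table and leaving out each array.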

Additional observations from a re-analysis of the deposited data

Results flagged for a closer look

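The median IP/Sup ratio of EP3B probes minus that of matched EP3A probes was -0.012 on testosterone replicate 5, away from the other 4 testosterone arrays at 0.037 to 0.049. The gap to the nearest array was 0.798 of the group's range. Chance gives such a flag in about 1 in 20 groups, and 46 groups were looked at.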

How the results depend on the processing

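With normexp the EP3B probes on the IP side numbered 534, the median ratio difference from matched EP3A was 0.017, high minus middle block was -0.17 and low minus middle 0.072 in the ratio, and high minus middle was -0.020 in the abundance difference (-0.015 without the second scan). The alternatives by block were chosen after seeing the data. Normexp also shrank the 4 ratio differences of single probes, to -0.070 to 0.19 for 3 of them and -0.34 for the other. The abundance count rose from 0 to 2 on the spike-in scale and 52 with the value table, and ranged from 0 to 1 when each array was left out. The gap of the abundance difference to matched EP3A was 0.0036 within slide 2. Without matching, detection differed by -6.74 points in Sup and -4.78 in IP. Unadjusted ratio counts were 159 with normexp (2.91%, all tested probes 3.45%) and 464 with no filter. They were 96 (1.76%, all 1.70%) and 183 (3.35%, all 3.00%) with slide and scan as a block, and 199 to 373 over arrays left out. For abundance they were 314 (4.94%, all 4.14%) and 632 (9.93%, all 7.99%) with these blocks, 671 from Sup alone and 639 to 1171 over arrays left out. For counts without a percentage, the share over all probes is not given here. Signs that turned included the larger side of the IP/Sup split (1090 and 1056, then 534 and 712 with normexp). The median group difference of the ratio turned as well (-0.032, then 0.044 without the second scan and 0.073 on the spike-in scale). Its gap to matched EP3A went from -0.019 to 0.0038 without the second scan. With normexp the larger side of the abundance split turned (405 and 634, then 404 and 229), as did the median abundance difference of EP3B probes (-0.019, then 0.045). In total 224 of the 236 recomputed values of main results moved by less than the spread or by less than 1.5 times. This tally is no measure of robustness. It includes counts of 0 that stayed 0 and ratio differences between blocks, which spike-in centring cannot change. Small values that changed sign also count as unmoved. Same-numbered animals showed little common deviation (correlations of -0.030 to 0.041 for the ratio and -0.051 to 0.21 for abundance, own number best for 0 of 5). The labels state no pairing, and such correlations cannot exclude a pairing. With the replicate block, 0 EP3B probes passed for either measure. An unadjusted p under 0.05 was found for 325 in the ratio (5.95%, all 6.78%) and 1159 in abundance (18.2%, all 18.2%). Dim probes, whose ratio SD was 0.505 in the lowest bin, limit what a difference near background can show.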
